A study of Mus musculus with 26 samples.

Results

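The 10 genes described here encode transcription factors of early heart development: Gata4, Gata5, Gata6, Tbx20, Tbx5, Isl1, Nkx2-5, Hand1, Hand2 and Mef2c. They were taken by name. A probe set, a small group of array probes that mostly lies within 1 exon, counted for a gene when the platform annotation gave it that gene's symbol and no other. This gave 144 of the 306069 probe sets with 1 symbol, and 10 of the 18329 genes that had at least 4 probe sets. For each array, the gene value is the median of the gene's brighter probe sets, meaning the 50% (rounded up) with the highest mean in the 26 arrays. All values are log2 values, so 1 unit is a 2-fold difference, and levels are compared between arrays and never between genes.

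The series holds 26 mouse samples measured on the Affymetrix Mouse Exon 1.0 ST array after a 2-round amplification of total RNA. The source label is ES EB for every sample, which probably stands for embryonic stem cells and for embryoid bodies, the aggregates these cells form as they differentiate. The tissue label calls each sample an embryoid body cell, so which samples, if any, were undifferentiated stem cells is not stated. Samples are grouped by mouse strain only. The strain label is 129S2/SvPas for the 14 arrays ES1 to ES14 and C57BL/6 for the 12 arrays ES15 to ES26. The labels used here name no genotype, treatment, age, sex, day of culture, batch or number of pooled cultures for any array, and they do not say what the order of the titles stands for. The arrays are described below by their values alone in 4 stretches of titles, ES13 to ES20, ES1 to ES12, ES21 to ES24 and ES25 to ES26. They are not groups in the labels, so nothing was tested between them.

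In the embryo, these factors work as a network in the mesoderm that forms the heart. GATA proteins, T-box proteins, the homeodomain protein NKX2-5, the LIM homeodomain protein ISL1, the basic helix-loop-helix HAND proteins and the MADS-box protein MEF2C bind their own short DNA motifs, often beside one another, and several of them regulate one another's genes. None of the 10 is used by the heart alone. GATA4 and GATA6 also act in extraembryonic endoderm, HAND1 in trophoblast and extraembryonic mesoderm, ISL1 in motor neurons, HAND2 in sympathetic neurons and limb buds, and MEF2C in endothelium, blood cells and skeletal muscle.

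The arrays differed widely in the cell types whose markers they carried. Among the stretches of titles, only ES13 to ES20 held both strain labels. ES1 to ES12 were all labelled 129S2/SvPas, and ES21 to ES26 all C57BL/6. A list score here is the mean gene value over a list's tested genes. The score of 18 tested myeloid markers lay at 5.93 to 7.49 in ES13 to ES20, 10.9 to 11.9 in ES1 to ES12, 5.83 to 6.20 in ES21 to ES24 and 5.89 to 6.21 in ES25 and ES26. The score of 20 naive pluripotency genes lay at 7.39 to 8.12 in ES13 to ES20, 5.70 to 6.01 in ES1 to ES12, 10.1 to 10.6 in ES21 to ES24 and 6.93 to 7.67 in ES25 and ES26. ES13 and ES14 carry the 129S2/SvPas label but had myeloid scores of 6.15 and 5.93, far below the 12 other arrays of that label. In bulk samples such as these, fewer cells of a type and less RNA per cell cannot be told apart.

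Promoter sequences were found in the RefSeq table of mouse assembly GRCm38.p6 for 6 of the 10 genes, Gata5, Tbx20, Isl1, Nkx2-5, Hand2 and Mef2c, which has 3. Each runs from 250 bases before the annotated start to 50 bases after it. They were searched on both strands for the motifs of the factors themselves. These were the GATA motif in 4 forms, AGATAA and AGATAG as well as TGATAA and TGATAG, then the T-box motif AGGTGTNA, the NKX2 motif TNAAGTG, the MEF2 motif, and the E-box CANNTG bound by HAND and other basic helix-loop-helix proteins. A GATA motif occurred in 2 of the 8 promoters, those of Isl1 and Hand2, at 2 matches each. Over all 32851 promoters 29.8% held at least 1, so the share among these genes was near that of all promoters. An E-box occurred in 6 of the 8 promoters, against 72.3% of all. No T-box, NKX2 or MEF2 match occurred in these promoters, and 3.0%, 11.5% and 3.2% of all promoters held one. The promoters of Isl1 and Hand2 are shown because they hold GATA matches, which are in capitals, and that of Tbx20 because its gene value varied most between arrays. Isl1 lies at chr13:116309639-116309938 on the minus strand, Hand2 at chr8:57320733-57321032 on the plus strand and Tbx20 at chr9:24774254-24774553 on the minus strand, each printed in the direction of its gene. In Hand2 the second match, TTATCT, is AGATAA on the other strand. A match is a run of letters and not a measured binding site.
Isl1: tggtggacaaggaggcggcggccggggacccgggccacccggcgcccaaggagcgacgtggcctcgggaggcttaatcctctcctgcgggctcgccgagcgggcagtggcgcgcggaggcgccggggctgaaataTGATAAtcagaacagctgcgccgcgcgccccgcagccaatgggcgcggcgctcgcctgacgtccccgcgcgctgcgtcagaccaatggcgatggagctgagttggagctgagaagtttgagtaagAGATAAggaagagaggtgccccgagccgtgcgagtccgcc
Hand2: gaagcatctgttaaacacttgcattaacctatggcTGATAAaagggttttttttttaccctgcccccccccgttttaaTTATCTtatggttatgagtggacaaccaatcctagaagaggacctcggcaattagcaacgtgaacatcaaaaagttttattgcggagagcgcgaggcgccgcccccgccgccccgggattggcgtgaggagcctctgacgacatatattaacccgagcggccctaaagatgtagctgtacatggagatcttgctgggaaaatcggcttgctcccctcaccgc
Tbx20: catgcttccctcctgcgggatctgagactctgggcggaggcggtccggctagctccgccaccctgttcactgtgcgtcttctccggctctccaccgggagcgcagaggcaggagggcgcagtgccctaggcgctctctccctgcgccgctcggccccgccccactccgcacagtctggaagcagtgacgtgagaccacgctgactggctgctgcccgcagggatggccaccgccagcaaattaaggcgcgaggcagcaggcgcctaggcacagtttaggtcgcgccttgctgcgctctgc

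Averaged over the 10 genes, each of ES13 to ES20 was higher than any other array. The mean gene value of the 10 genes was 7.98, 8.26, 8.25, 8.55, 8.61, 8.71, 8.53 and 8.43 in ES13 to ES20 in title order. It lay between 5.81 and 6.52 in ES1 to ES12, between 6.68 and 7.03 in ES21 to ES24, and was 7.23 and 7.33 in ES25 and ES26. For 5 of the 10 genes, Gata5, Gata6, Tbx20, Hand1 and Hand2, all 8 arrays ES13 to ES20 lay above all 18 others, against 1.67% of all genes tested. Against ES1 to ES12 alone, ES13 to ES20 lay wholly above for 7 of 10 genes (10% of all genes). Against ES21 to ES24 this held for 6 of 10 (5.41% of all genes), and against ES25 and ES26 for 5 of 10 (11.5% of all genes). For 3 of 10, Gata4, Tbx20 and Isl1, all of ES13 to ES26 lay above ES1 to ES12 (6.41% of all genes). No gene of the 10 had ES13 to ES20 wholly below any of these sets, against 0.878% of all genes below the 18 others, 11.7% below ES1 to ES12, 8.7% below ES21 to ES24, 15.4% below ES25 and ES26, and 7.77% with ES13 to ES26 below ES1 to ES12. The set of genes was proposed with earlier results of these arrays in view, so the counts describe the 10 genes and are no independent evidence.

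**Figure D1:**
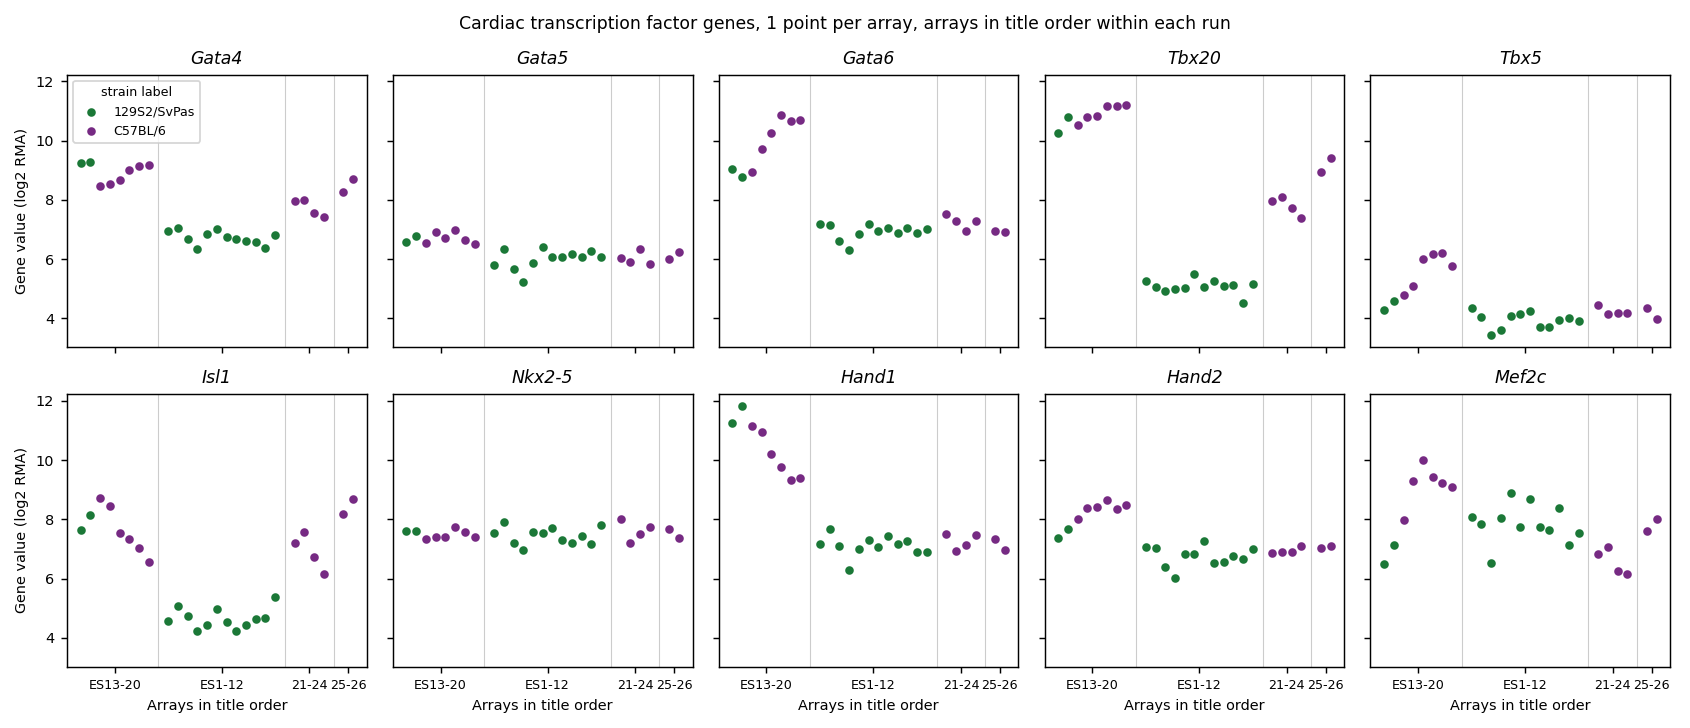
Gene value (log2 RMA) of each of the 10 genes, with 1 point per array, coloured by strain label and set out in title order within ES13 to ES20, ES1 to ES12, ES21 to ES24 and ES25 to ES26. Tbx20 spans the widest range, from 4.53 to 11.20, while Nkx2-5 stays between 6.98 and 8.01 in all 26 arrays.

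Among the GATA zinc finger genes, Gata6 had the wider contrast between ES13 to ES20 and the rest, and Gata4 was intermediate in ES21 to ES26. Gata4 encodes a factor needed for heart tube formation and for primitive endoderm genes. Its gene value was 9.25, 9.28, 8.46, 8.54, 8.68, 9.00, 9.15 and 9.17 in ES13 to ES20. In ES1 to ES12 it lay between 6.35 and 7.06, with a median of 6.71. It was 7.95, 7.99, 7.57 and 7.43 in ES21 to ES24, and 8.28 and 8.69 in ES25 and ES26. All 14 arrays from ES13 on lay above all of ES1 to ES12, and ES26 lay inside the range of ES13 to ES20, so Gata4 did not set ES13 to ES20 apart. Within ES13 to ES20 the lowest array was ES15 and the highest ES14, less than 1 log2 unit apart.

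Gata6, which acts in primitive endoderm, in cardiac progenitors and in vascular smooth muscle, had gene values of 9.04, 8.78, 8.95, 9.73, 10.26, 10.85, 10.67 and 10.70 in ES13 to ES20. The 18 other arrays lay between 6.31 and 7.53, that is 6.31 to 7.19 in ES1 to ES12, 6.93 to 7.53 in ES21 to ES24, and 6.96 and 6.91 in ES25 and ES26. A gap of 1.24 separated ES13 to ES20 from the next array. ES20 was 1.93 above ES14 and the difference had the same sign in all 11 of the brighter probe sets. Unlike Gata4, Gata6 was no higher in ES25 and ES26 than in ES1 to ES12.

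Gata5, a factor of endocardial development, varied little by its gene value. It was 6.58, 6.79, 6.54, 6.90, 6.71, 6.96, 6.64 and 6.50 in ES13 to ES20, against 5.24 to 6.42 in ES1 to ES12, 5.85 to 6.34 in ES21 to ES24, and 5.99 and 6.25 in ES25 and ES26. ES13 to ES20 lay above every other array, but by a gap of 0.09 only.

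The T-box genes differed from one another in where they were high. Tbx20, which encodes a repressor and activator needed for chamber formation, had the widest range of the 10 genes at 6.68 log2 units. Its gene value was 10.25, 10.81, 10.53, 10.80, 10.84, 11.16, 11.16 and 11.20 in ES13 to ES20. In ES1 to ES12 it lay between 4.53 and 5.49 with a median of 5.08, in ES21 to ES24 it was 7.96, 8.11, 7.73 and 7.38, and in ES25 and ES26 it was 8.94 and 9.40. The 4 stretches did not overlap, with ES13 to ES20 highest, ES25 and ES26 next, then ES21 to ES24 and ES1 to ES12. Within ES13 to ES20, ES20 was 0.96 above ES13, and the sign was shared by all 10 brighter probe sets.

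Tbx5, which marks the first heart field and the forelimb bud, was low in most arrays. It had gene values of 4.27, 4.59, 4.79, 5.09, 6.02, 6.16, 6.20 and 5.75 in ES13 to ES20. It lay between 3.45 and 4.36 in ES1 to ES12, between 4.15 and 4.45 in ES21 to ES24, and at 4.34 and 3.97 in ES25 and ES26. ES13 lay within the range of the other 18 arrays and ES14 to ES20 above it. ES18 was 1.89 above ES13, with all 5 brighter probe sets higher.

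The homeobox genes Isl1 and Nkx2-5 contrasted with each other. Isl1 encodes a factor of second heart field progenitors and of motor neurons. Its gene value was 7.64, 8.15, 8.73, 8.44, 7.54, 7.35, 7.04 and 6.56 in ES13 to ES20, so that it was highest in ES15 and lowest in ES20. The gap of 2.18 between ES15 and ES20 had the same sign in all 6 brighter probe sets. In ES1 to ES12 Isl1 lay between 4.22 and 5.37 with a median of 4.60. It was 7.20, 7.58, 6.74 and 6.15 in ES21 to ES24, and 8.17 and 8.69 in ES25 and ES26. Every array from ES13 on lay above ES1 to ES12, and both other stretches overlapped with ES13 to ES20. The score of 17 motor neuron and neural genes, a list that does not hold Isl1, was 6.70 to 7.09 in ES13 to ES20, 5.83 to 6.21 in ES1 to ES12, 7.34 to 7.63 in ES21 to ES24 and 7.14 to 7.22 in ES25 and ES26. Mnx1 and Lhx3, which mark motor neurons and were picked from this list after their values were seen, ran from 4.81 to 5.74 and from 5.96 to 7.58 over all 26 arrays. Other neural genes of the list varied more. Sox11 lay at 9.99 to 10.9 in ES13 to ES20 and 6.26 to 6.94 in ES1 to ES12. In the same stretches Nes lay at 7.56 to 8.24 and 4.79 to 5.84, and Stmn2 at 6.90 to 7.59 and 4.71 to 5.63. In ES21 to ES24 Sox11 lay at 9.55 to 9.71, Nes at 8.45 to 9.12 and Stmn2 at 9.65 to 10.4. In ES25 and ES26 they lay at 9.89 to 10.1, 8.80 to 9.47 and 7.64 to 7.70, in this order. Nes and Stmn2 were thus higher in ES21 to ES26 than in ES13 to ES20. The part of neural RNA in the Isl1 values was not tested.

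Nkx2-5, the homeobox gene most often used to mark cardiac progenitors, showed no such pattern. Its gene value was 7.62, 7.60, 7.32, 7.39, 7.42, 7.74, 7.58 and 7.40 in ES13 to ES20. ES1 to ES12 ranged from 6.98 to 7.91, ES21 to ES24 gave 8.01, 7.20, 7.52 and 7.75, and ES25 and ES26 gave 7.69 and 7.38. The 4 stretches overlapped throughout, and the whole range over 26 arrays was 1.03 log2 units.

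The HAND genes, which encode factors of the ventricles and of several other tissues, were both highest in ES13 to ES20 but ran in opposite directions along the titles. Hand1 had gene values of 11.27, 11.81, 11.16, 10.93, 10.22, 9.78, 9.32 and 9.39 in ES13 to ES20. The 18 other arrays lay between 6.29 and 7.68, leaving a gap of 1.64, the widest of the 10 genes. ES20 was below ES13 by 1.88 log2 units, with all 3 brighter probe sets lower. The score of 15 trophoblast genes, among them Hand1 itself, also ran downward, from 8.12 in both ES13 and ES14 through 7.79, 7.68, 7.54, 7.51 and 7.49 to 7.57 in ES20, against 5.88 to 6.40 in ES1 to ES12, 7.14 to 7.30 in ES21 to ES24 and 6.95 to 6.99 in ES25 and ES26. For 4 of these 15 genes, Hand1 itself, Plac1, Peg10 and Fgfr2, ES13 to ES20 lay above all other arrays (1.67% of all genes). Peg10 did so only narrowly, at 12.368 in ES20 against 12.365 in ES25. The score of 18 primitive streak and mesoderm genes was 8.85 in ES13, 7.94 in ES14, 7.48 in ES15 and 7.22 to 7.30 in ES16 to ES20, against 5.69 to 6.31 in ES1 to ES12, 6.82 to 7.03 in ES21 to ES24 and 6.48 to 6.49 in ES25 and ES26. In 3 of these 18 genes, Pdgfra, Kdr and Lhx1, ES13 to ES20 lay above all other arrays (1.67% of all genes). Lhx1 did so narrowly, at 5.37 in ES20 against 5.30 in ES10. The part of trophoblast or mesoderm RNA in the Hand1 values was not tested.

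Hand2 had gene values of 7.38, 7.66, 8.02, 8.38, 8.43, 8.64, 8.35 and 8.49 in ES13 to ES20. It lay between 6.03 and 7.27 in ES1 to ES12, between 6.87 and 7.10 in ES21 to ES24, and at 7.02 and 7.09 in ES25 and ES26. ES13 lay above the highest other array by only 0.11. ES18 was 1.26 above ES13, with 4 of 5 brighter probe sets higher.

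Mef2c, a MADS-box factor that activates muscle genes, had the widest spread inside ES13 to ES20. Its gene value was 6.49, 7.12, 7.99, 9.28, 10.01, 9.41, 9.24 and 9.10 in title order. ES17 was 2.89 above ES14 and ES20 was 0.90 below ES17, with all 18 brighter probe sets agreeing in sign both times. In ES1 to ES12 it lay between 6.51 and 8.88 with a median of 7.80, inside the range of ES13 to ES20. It was 6.83, 7.08, 6.26 and 6.15 in ES21 to ES24, and 7.59 and 8.01 in ES25 and ES26. ES13 to ES20 therefore overlapped with every other stretch. The score of 14 endothelial genes likewise peaked at ES17, at 7.26, 7.78, 8.16, 8.43, 8.83, 8.50, 8.22 and 7.98 in ES13 to ES20, and lay at 6.52 to 6.90 in ES1 to ES12, 6.21 to 6.60 in ES21 to ES24 and 5.54 to 5.77 in ES25 and ES26. The part of endothelial or myeloid RNA in the Mef2c values was not tested.

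**Figure D2:**
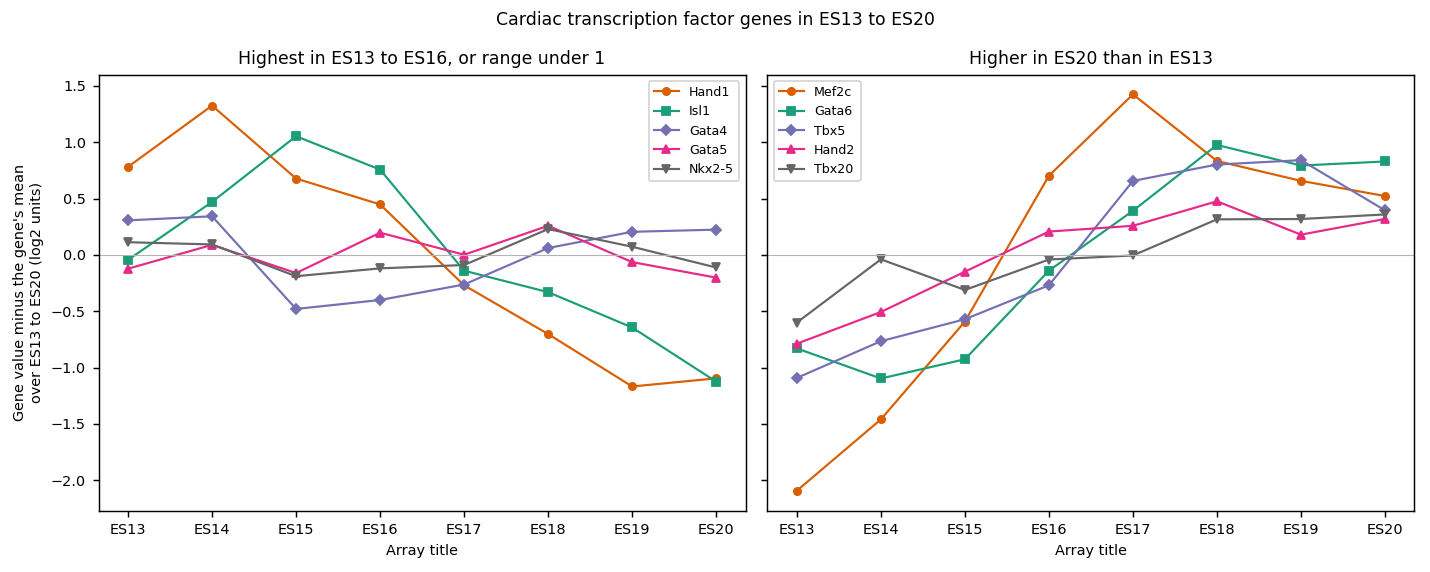
Gene value in ES13 to ES20 minus the gene's own mean over these 8 arrays (log2 units), 1 line per gene. On the left Hand1 and Isl1 run down towards ES20 while Gata4, Gata5 and Nkx2-5 stay within 1 log2 unit, and on the right Mef2c, Gata6, Tbx5, Hand2 and Tbx20 are higher in ES20 than in ES13.

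Other marker lists also changed along ES13 to ES20. The score of 22 extraembryonic endoderm genes was 7.35, 7.33, 7.46, 7.69, 7.84, 8.22, 8.44 and 8.32 in title order, which like Gata6 was highest in ES18 to ES20. It lay at 6.02 to 6.53 in ES1 to ES12, 7.11 to 7.39 in ES21 to ES24 and 7.41 to 7.44 in ES25 and ES26. For 2 of its 22 genes, Sox7 and Pdgfra, ES13 to ES20 lay above all others (1.67% of all genes). Between ES13 and ES20, 15 of the 22 genes were higher in ES20 and 7 lower, with a median difference of 0.30. Afp and Ttr, secreted proteins of visceral endoderm, were at 4.64 and 5.90 in ES13 and at 9.97 and 9.61 in ES20. The endoderm factor genes Sox7 and Sox17 were at 7.19 and 6.28 in ES13 and at 6.09 and 6.00 in ES20. These 4 were named after their values were seen. The score of 19 smooth muscle and mesenchyme genes was 8.15 in ES13 and between 10.0 and 10.2 in ES18 to ES20, against 6.38 to 7.01 in ES1 to ES12, 8.03 to 8.82 in ES21 to ES24 and 9.21 to 9.30 in ES25 and ES26. The score of 11 primitive erythroid genes was 7.40 in ES13, 11.1 in ES16 and 9.11 in ES20, against 6.81 to 7.16 in ES1 to ES12, 6.04 to 6.30 in ES21 to ES24 and 5.66 to 5.80 in ES25 and ES26. The part of these cell types in the values of the 10 genes was not tested.

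The probe sets of a gene did not all show its contrast, and for several genes the brighter ones spanned less. Of the 144 probe sets, 46 had all of ES13 to ES20 above the 18 other arrays, against 0.954% of all probe sets on the array. They were 19 of 20 for Tbx20, 16 of 21 for Gata6, 4 of 5 for Hand1, 5 of 10 for Hand2 and 2 of 10 for Tbx5, and 0 for Gata4, Gata5, Isl1, Nkx2-5 and Mef2c. In Gata6, the median range over 26 arrays was 4.19 for brighter and 7.18 for dimmer probe sets. In Hand2 it was 2.45 for brighter and 4.66 for dimmer probe sets, in Gata5 1.97 for brighter and 3.61 for dimmer ones, and in Gata4 3.52 for brighter and 4.41 for dimmer ones. Tbx5 and Nkx2-5 also had wider dimmer probe sets. The other 4 genes went the other way, with 7.24 for brighter and 5.16 for dimmer probe sets in Tbx20, 4.67 and 4.14 in Isl1, 4.96 and 3.76 in Hand1, and 4.41 and 3.60 in Mef2c. The gene value from dimmer probe sets had the wider range in 5 of 10 genes, against 58.3% of all genes tested.

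The widest probe set of Gata6, 5148899, lay between 10.6 and 12.7 in ES13 to ES20, against 1.59 to 3.90 in ES1 to ES12, 5.52 to 7.95 in ES21 to ES24 and 2.19 to 2.70 in ES25 and ES26. That of Hand2, 4386086, lay between 6.53 and 10.4 in ES13 to ES20, against 3.66 to 5.21 in ES1 to ES12, 3.64 to 5.20 in ES21 to ES24 and 4.12 to 4.68 in ES25 and ES26. Both are much wider than the ranges of their gene values. That of Tbx5, 5311521, was among its brighter ones and lay between 4.17 and 7.99 in ES13 to ES20, against 2.37 to 3.69 in ES1 to ES12, 2.41 to 3.77 in ES21 to ES24 and 2.36 to 3.62 in ES25 and ES26. The most variable probe set of Nkx2-5, 4795350, was among its dimmer ones and lay between 6.71 and 8.67 in ES13 to ES20, against 3.80 to 7.12 in ES1 to ES12, 5.27 to 6.69 in ES21 to ES24 and 7.15 to 7.34 in ES25 and ES26. In this probe set ES13 to ES20 lay just above ES21 to ES24 and overlapped with ES1 to ES12 and with ES25 and ES26. These 4 probe sets were picked for their range after the values were seen.

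**Figure D3:**
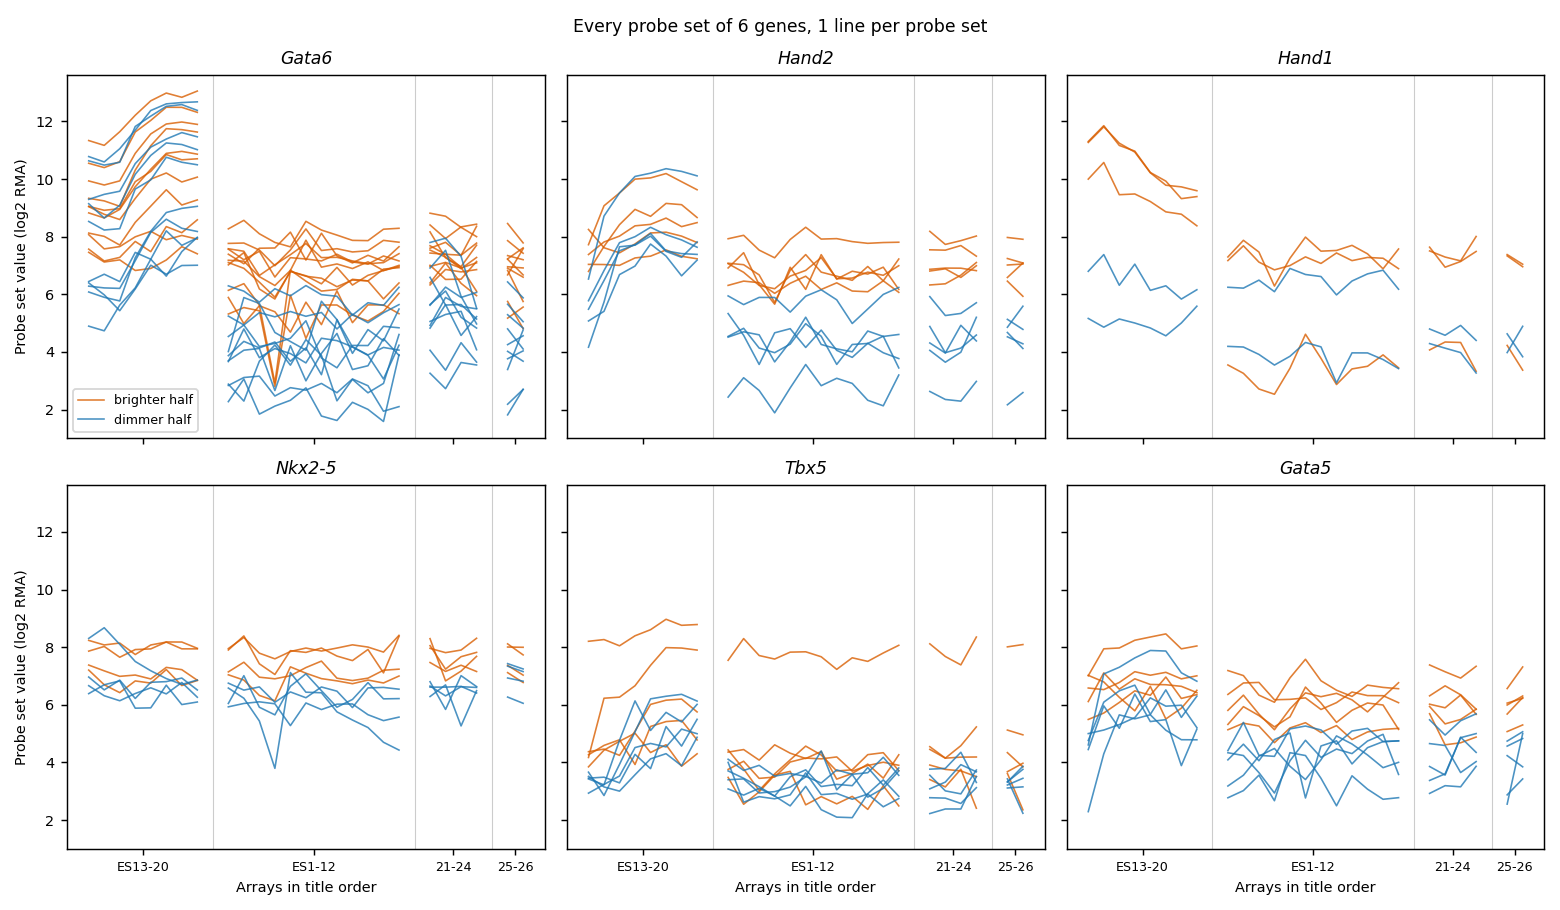
Every probe set (log2 RMA) of Gata6, Hand2, Hand1, Nkx2-5, Tbx5 and Gata5, with 1 line per probe set, orange for the brighter and blue for the dimmer ones, over arrays in title order. In Gata6 and Hand2 the dimmer probe sets reach down further outside ES13 to ES20 than the brighter ones, while in Nkx2-5 most lines stay nearly level.

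The only comparison the labels allow is between strains. Between arrays labelled 129S2/SvPas and C57BL/6, 6 of the 10 genes were lower in 129S2/SvPas and 0 were higher (limma on 18329 genes, adjusted p under 0.05). Over all genes 43.3% were called, 22.1% lower and 21.2% higher. The median difference, 129S2/SvPas minus C57BL/6, was -0.94 for the 10 genes and 0.00 for all genes. No gene of the 10 separated the labels without overlap, against 0.529% of all genes wholly lower and 0.115% wholly higher in 129S2/SvPas. Without the 12 arrays ES1 to ES12, limma called 0 of 10 genes and 1 of all genes (0.00546%). Only ES13 and ES14 then stand for 129S2/SvPas, so a gene may be missed for want of arrays. The count alone therefore does not show what the calls rest on. At an unadjusted p under 0.05 limma then called 2 of the 10 as higher, Gata4 and Hand1, and 0 as lower. Of all 18329 genes it called 1814 in either direction. The differences of Gata4, Gata5, Gata6, Tbx20, Isl1, Nkx2-5 and Hand1 were then positive, where over all 26 arrays they were negative. Those of Tbx5, Hand2 and Mef2c stayed negative. Nothing in the labels says that the arrays came from separate cultures, so the p-values cover no more than the spread from sample to sample. That spread includes the differences between stretches of titles, and within a stretch it may be technical. The test took the arrays as independent of one another.

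Tbx20 averaged 5.86 ± 1.99 in 129S2/SvPas arrays and 9.60 ± 1.51 in C57BL/6 arrays (SD, n = 14 and 12), a difference of -3.74 ± 0.66 (SE, limma adjusted p = 5.28e-05). Isl1 averaged 5.12 ± 1.22 in 129S2/SvPas and 7.51 ± 0.85 in C57BL/6, a difference of -2.40 ± 0.40 (limma adjusted p = 2.30e-05). Gata6 averaged 7.21 ± 0.76 in 129S2/SvPas and 8.67 ± 1.67 in C57BL/6, a difference of -1.46 ± 0.47 (limma adjusted p = 0.0131). Both labels hold arrays from more than 1 stretch of titles, and the SD within a label includes the differences between stretches.

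Gata4 averaged 7.09 ± 0.95 in 129S2/SvPas and 8.41 ± 0.58 in C57BL/6, a difference of -1.32 ± 0.30 (limma adjusted p = 0.000800). For Tbx5 the averages were 4.01 ± 0.32 in 129S2/SvPas and 4.94 ± 0.86 in C57BL/6, a difference of -0.94 ± 0.24 (limma adjusted p = 0.00212). For Hand2 they were 6.86 ± 0.42 in 129S2/SvPas and 7.68 ± 0.75 in C57BL/6, a difference of -0.82 ± 0.23 (limma adjusted p = 0.00416). The other 4 genes did not pass. Their differences were -0.94 ± 0.61 for Hand1, -0.38 ± 0.39 for Mef2c, -0.28 ± 0.15 for Gata5 and -0.07 ± 0.11 for Nkx2-5 (limma adjusted p = 0.223, 0.461, 0.135 and 0.654 in this order).

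ES13 and ES14 carry the 129S2/SvPas label but lay apart from ES1 to ES12 in several genes, such as Tbx20, Hand1 and Isl1. Without them 8 of 10 genes were lower and 0 higher, at 50.5% of all genes called, 25.2% lower and 25.3% higher. The 2 genes gained were Hand1, at -1.57 (limma adjusted p = 0.00424), and Gata5, at -0.38 (limma adjusted p = 0.0288). Taking the dimmer probe sets for the gene value, an alternative chosen after the data were seen, also called Nkx2-5, at -0.46 (limma adjusted p = 0.00330), at 39.6% of all genes called, 19.9% lower and 19.7% higher.

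**Figure D4:**
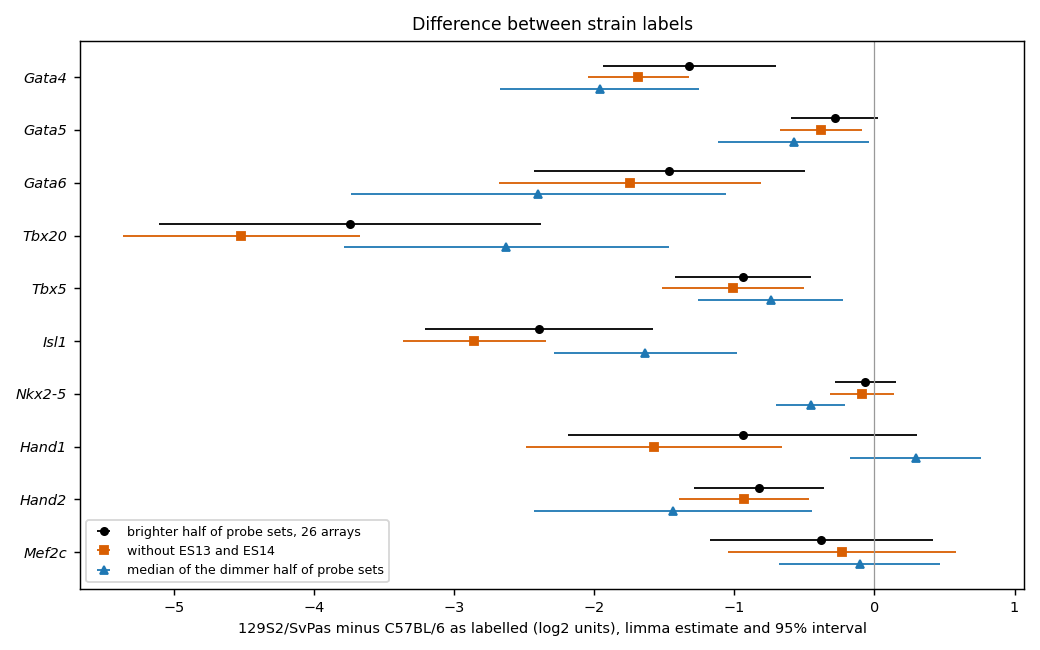
Difference between strain labels for each gene, 129S2/SvPas minus C57BL/6 (log2 units), as limma estimate with its 95% interval, for all 26 arrays, without ES13 and ES14, and with gene values from the dimmer probe sets. Tbx20 and Isl1 lie furthest below 0 in all 26 arrays, at -3.74 and -2.40, while Nkx2-5 lies at -0.07 and passes the threshold only in the third of these, with the dimmer probe sets.

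Tested probe set by probe set, 76 of the 144 were lower and 1 was higher in 129S2/SvPas than in C57BL/6 (limma on all 631748 probe sets, adjusted p under 0.05), against 28.8% of all probe sets called, 14.6% lower and 14.2% higher. Lower ones were 18 of 21 for Gata6, 18 of 20 for Tbx20, 11 of 12 for Isl1, 10 of 12 for Gata4, 7 of 10 for Hand2, 6 of 10 for Tbx5 and 4 of 10 for Gata5. Mef2c had 1 of 36 and Nkx2-5 1 of 8. The single higher one was Hand1 probe set 5556710, which averaged 6.24 ± 0.60 in 129S2/SvPas arrays and 4.77 ± 0.43 in C57BL/6 arrays and lay at 4.56 to 5.59 in ES13 to ES20, where the Hand1 gene value was highest. None of the other 4 Hand1 probe sets was called. All probe sets of a gene come from the same arrays and are no replicates of it.

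Set against the gene value of the same array, 3 of the members' probe sets departed from their gene between labels by more than 1 log2 unit, against 0.66% of the 155993 probe sets tested, 0.319% lower and 0.342% higher (limma with a minimum difference, adjusted p under 0.05). All belong to Tbx20. Only probe sets with a mean above the median probe set, in genes above the median gene, were tested. Gata5, Tbx5, Isl1 and Hand2 lay below that cut, so none of their probe sets could be called. With no such filter, 4 of the members' probe sets and 2433 of all were called. The value of probe set 4587247 minus its gene value differed by -2.46 between 129S2/SvPas and C57BL/6 (limma adjusted p = 0.0133), and the probe set lay between 11.3 and 12.2 in ES13 to ES20 but between 2.04 and 4.38 in ES1 to ES12. For probe sets 5210458 and 5324645 this difference was 3.21 and 2.44 (limma adjusted p = 0.00445 and 0.0447). Probe set 5324645 lay between 11.0 and 12.0 in ES13 to ES20 and still between 8.68 and 9.44 in ES1 to ES12, where the Tbx20 gene value was at 4.53 to 5.49.

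The other genes of the cardiac programme were taken from lists chosen with earlier results of these arrays known. Of 40 listed regulators outside the 10 genes 38 were tested, of which 18 were lower and 4 higher in 129S2/SvPas than in C57BL/6, against 22.1% and 21.2% of all genes, with a median difference of -0.68. The largest differences were -2.97 for Tead1, a partner of YAP, -2.79 for the LIM-domain protein gene Fhl2, -2.70 for Sall4, a zinc finger factor also active in pluripotent cells, and -2.43 for Eya1, a cofactor of homeobox proteins. In none of these named genes did ES13 to ES20 lie above all other arrays. Eya1 lay at 6.73 to 7.49 in ES13 to ES20, below ES21 to ES24 (8.52 to 9.07) and ES25 and ES26 (10.2 to 10.5). The score of the 38 regulators lay at 7.36 to 7.51 in ES13 to ES20 and 6.21 to 6.80 in ES1 to ES12. This score was 7.16 to 7.46 in ES21 to ES24 and 7.39 to 7.43 in ES25 and ES26. It therefore overlapped between ES13 to ES20 and ES21 to ES26, where the score of the 10 genes did not. For 3 of the 38, Tbx2, Hey1 and Zfpm1, ES13 to ES20 lay above all other arrays, against 1.67% of all genes.

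Of 25 tested genes for inducing signals, their inhibitors, receptors and SMAD mediators, 13 were lower and 1 higher in 129S2/SvPas, against 22.1% and 21.2% of all genes, with a median difference of -0.84. The named ones were the WNT inhibitor Sfrp1 at -4.66, the ligand Bmp4 at -3.23, the receptor Pdgfra at -2.67 and the ligand Wnt5a at -1.80. In 7 of the 25, ES13 to ES20 lay above all other arrays, against 1.67% of all genes. The score was 7.73 to 8.12 in ES13 to ES20, 5.85 to 6.26 in ES1 to ES12, 7.08 to 7.23 in ES21 to ES24 and 6.89 to 6.97 in ES25 and ES26.

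The contractile and natriuretic genes, which differentiated heart muscle cells express, varied less than the factors. Of 29 tested, 14 were lower and 3 higher in 129S2/SvPas, with a median difference of -0.30, against 22.1% lower and 21.2% higher of all genes. In 0 of 29 did ES13 to ES20 lie above all other arrays, against 1.67% of all genes. The largest differences were -2.30 for the tropomyosin gene Tpm1, 1.44 for the connexin gene Gja5, -1.38 for the connexin gene Gja1 and -1.02 for the calcium channel gene Cacna1c. Their score was 6.52 to 6.88 in ES13 to ES20, 6.00 to 6.44 in ES1 to ES12, 6.42 to 6.59 in ES21 to ES24 and 6.39 to 6.43 in ES25 and ES26. Over all 26 arrays 20 of the 29 ranged by less than 2 log2 units, which is 69.0% against 67.5% of all genes tested, and 2 of the 10 transcription factor genes did.

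Single contractile genes are given for heart muscle identity, picked after their values were seen. Myh6, the main myosin heavy chain of the adult mouse heart, lay at 5.36 to 5.97 in ES13 to ES20, against 5.51 to 6.18 in ES1 to ES12. Myl2, the ventricular myosin light chain, lay at 4.68 to 5.61 in ES13 to ES20 and 4.50 to 6.18 in ES1 to ES12. The natriuretic peptide gene Nppa lay at 5.52 to 6.67 in ES13 to ES20 and 5.64 to 6.34 in ES1 to ES12. For all 3, ES13 to ES20 overlapped with ES1 to ES12. Cardiac actin Actc1 reached 7.44 to 8.81 in ES13 to ES20, against 6.65 to 7.49 in ES1 to ES12, 7.41 to 8.28 in ES21 to ES24 and 7.31 to 7.46 in ES25 and ES26. The M-band gene Myom1 reached 5.40 to 8.03 in ES13 to ES20, against 4.96 to 5.61 in ES1 to ES12, 5.13 to 5.28 in ES21 to ES24 and 5.05 to 5.30 in ES25 and ES26. Other genes of the list were also higher in some of ES13 to ES20. Tnnt2 was 8.05, 8.19, 7.81 and 7.66 in ES17 to ES20, 6.96 to 7.31 in ES13 to ES16 and no higher than 7.63 elsewhere. Des lay at 6.85 to 8.17 in ES13 to ES20 and no higher than 7.33 elsewhere. Ryr2 lay at 6.03 to 6.79 in ES13 to ES20, 4.85 to 5.36 in ES1 to ES12 and 5.65 to 6.34 in ES21 to ES24. Tnni1 lay at 6.24 to 7.82 in ES13 to ES20 and no higher than 6.63 elsewhere. Myl7 rose from 5.50 in ES16 to 7.12 in ES20, and reached 6.03 in ES1 to ES12 and 6.69 in ES21 to ES24.

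**Figure D5:**
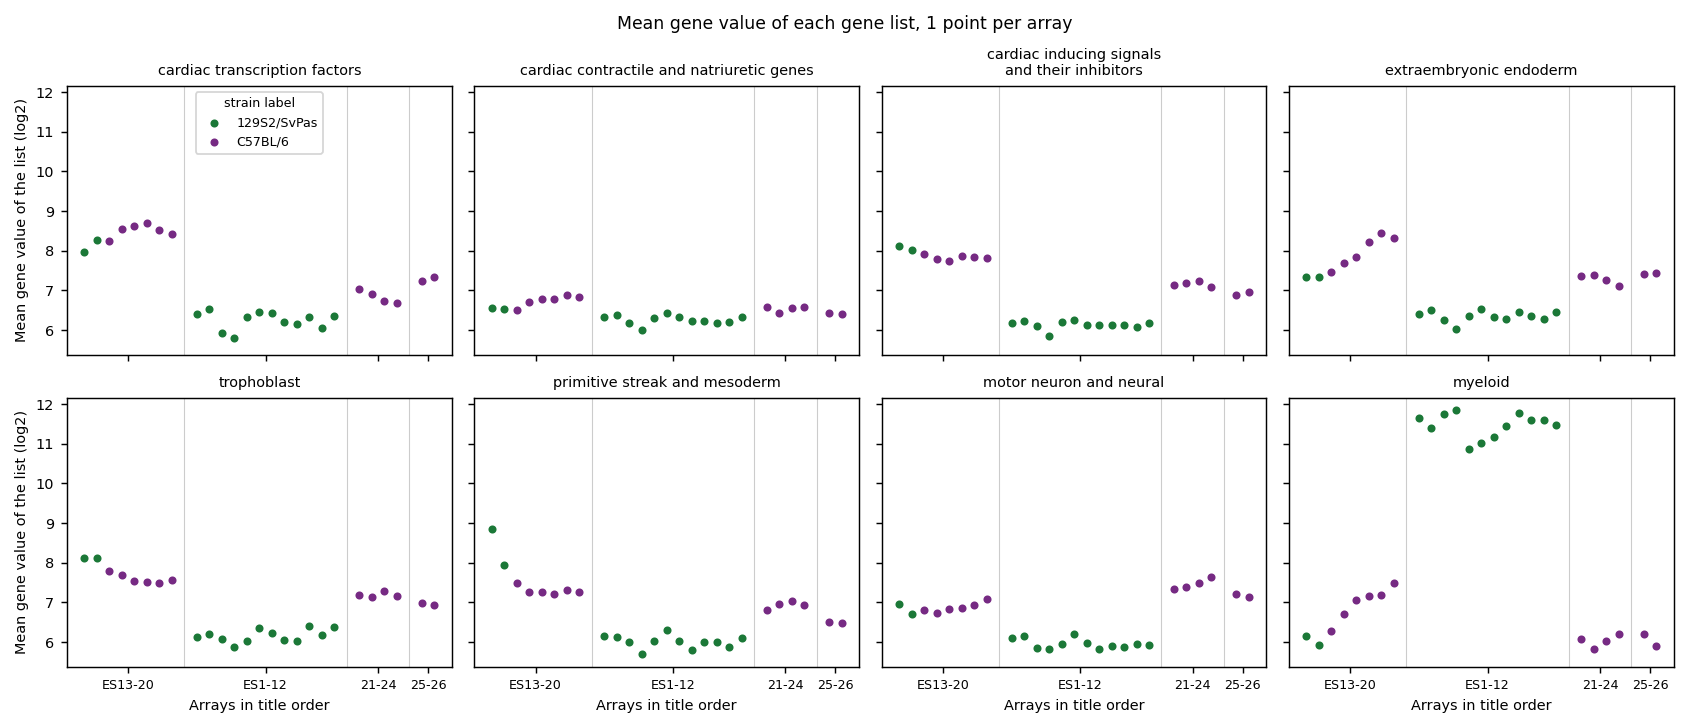
Mean gene value (log2) of 8 gene lists, with 1 point per array, coloured by strain label and in title order within each stretch. The 10 transcription factor genes lie at 7.98 to 8.71 in ES13 to ES20 and no higher than 7.33 elsewhere, the contractile genes stay between 6.00 and 6.88, and the myeloid genes lie at 10.9 to 11.9 in ES1 to ES12.

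Genes with the most similar profile were listed for the 8 genes whose value ranged over at least 2 log2 units. Likeness was the root mean square difference over the 26 arrays between gene values, each taken from the gene's own mean, among 16697 tested genes without a provisional name. It is a description, since all genes share the same arrays and the same contrasts between stretches. The closest genes were Mtss2 (0.29), Spats2l (0.30) and Auts2 (0.31) for Gata4, and Plxna4 (0.28), Ramp2 (0.38) and Ldb2 (0.39) for Gata6. For Tbx20 they were Cdh11 (0.49), Airn (0.51) and Odz3 (0.54), and for Tbx5 Stbd1 (0.24), Gfra3 (0.25) and Klhl29 (0.25). For Isl1 they were Ctxn1 (0.48), Patj (0.50) and Vash2 (0.51). Hand1 was closest to Greb1 (0.47), Reln (0.50) and Dgkk (0.57), and Mef2c to Heg1 (0.53), Marchf3 (0.54) and Gng11 (0.61). Hand2 was closest to Des, the muscle intermediate filament gene (0.25), to Rprm (0.26) and to Hoxa10 (0.27). Des lay between 5.82 and 8.17 over all arrays. Of all pairs among the 10 genes, Tbx5 and Hand2 were the most alike, at 0.27.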

How the data were processed

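RNA of 26 samples was measured on the Affymetrix Mouse Exon 1.0 ST array. Per the labels, the values deposited by the authors are RMA values of an extended-exon analysis, made with Affymetrix Expression Console per the submitters' processing notes with no version named. RMA corrects background, normalizes arrays and summarises probes, and the log base was taken as 2 (log2) from RMA convention and the range of 0.831 to 15.6 in the deposited table. Its 631748 probe sets had 0 missing values, array medians were 5.32 to 5.51, and no pair of arrays was identical. Arrays give no depth, so their number limits the precision.

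Symbols came from the platform annotation, and 3805 of 21757 were updated through the RefSeq gene table of GRCm38.p6. Genes needed at least 4 probe sets, which left 18329, and were compared by strain label with limma 3.58.1 in R 4.3.3 (lmFit, eBayes with a trend, two-sided, Benjamini-Hochberg over all genes, threshold 0.05). Probe sets were tested likewise. Probe sets minus their gene value were tested against a minimum difference of 1 log2 unit, among brighter genes and probe sets. On simulated data the gene comparison recovered 56% of 50 genes changed by 0.5 log2 units, 90% at 1 and 96% at 2. It made 12 false calls among the unchanged ones of the 18329 genes. The simulated noise was independent for each array and held no stretches of titles, so these rates need not hold for the real arrays. Named genes were all 10 members, up to 4 per list with the largest called difference, and the 3 nearest profiles for each gene ranging by at least 2. Other named genes were picked after their values were seen. Members, lists, tests and alternatives were chosen with earlier results of these data known. The labels give no scan date or batch, and strain follows the titles, so strain and any batch not recorded cannot be told apart.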

Additional observations from a re-analysis of the deposited data

How the results depend on the processing

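With each array left out in turn, the 6 genes lower in 129S2/SvPas stayed at 6 and the higher ones at 0, and all genes called ranged from 7536 to 8631. Hand1 turned positive with the median over all probe sets (0.13) and over the dimmer ones (0.29), and Nkx2-5 with arrays centred on their median (0.066) or quantile normalized (0.045). Centring moved the median difference of all genes to 0.13. Without ES1 to ES12 the differences were 0.86 for Gata4, 0.30 for Gata5, 0.24 for Gata6, 0.92 for Tbx20, 0.38 for Isl1, 0.079 for Nkx2-5 and 2.86 for Hand1, with 0 of the 10 genes and 1 of all genes called. Here 129S2/SvPas keeps 2 arrays. Without ES21 to ES24 8 genes were lower, with Gata5 and Mef2c (-1.13) added, at 7222 of 18329 genes called. Without the dimmer 50% of genes, which tests fewer genes, 4840 of all genes were called in either direction and 3 of the 10 were lower. Tbx5, Isl1 and Hand2, lower in the main comparison, were left out, as was Gata5, which was not called there. A minimum difference of 1 left 2959 of all genes. For single probe sets, 2 members' probe sets were higher with centred arrays (185334 of all 631748 called) and 3 without ES13 and ES14 (227546 called), and at a threshold of 0.01 120850 of all and 49 lower ones of the members were called. For probe sets within genes, 36284 of all and 38 of the members' were called with no minimum difference, 2433 of all with no filter on dim ones, and 3459 of all and 14 of the members' without ES13 and ES14. The cause of these shifts was not tested. No paired analysis was possible because the labels give the strains no shared replicate numbers.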
